A study of Homo sapiens with 4 samples.

Results

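Transcripts of 51 genes of the interferon pathway and response, IFI27 among them, were followed in NCI-H520 cells, an established line of lung squamous cell carcinoma. The genes were taken by symbol from a table of read counts, and all 51 were found among its 28277 genes. A total of 42 of them passed a filter on low counts, as did 14482 genes of the whole table. The 9 others were OASL, IFITM1, IFITM2, IFITM3, MX2, TRIM22, IFI44L, SAMD9L and XAF1. The list was drawn up with earlier results of these data known.

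The study compared 2 libraries from cells given ultrapure water (Vehicle) with 2 libraries made after 12 h of exposure to Hx1R8 at 10 µM. No exposure time is recorded for Vehicle. All cells were labelled wild type and grown in RPMI medium with fetal bovine serum. The labels do not say what kind of molecule Hx1R8 is. The title of the series names SOX2, a transcription factor of the squamous lineage, its self-association and resistance to chemotherapy. Whether replicates came from different cultures is not stated, and if they did not, p-values here cover only the spread between libraries, which may be technical.

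Type I interferons are secreted proteins that bind a receptor made of IFNAR1 and IFNAR2. The receptor works through the kinases JAK1 and TYK2, which activate STAT proteins. STAT2 and IRF9 enter a complex that binds the interferon-stimulated response element in the promoters of induced genes, many of which act against viruses. IFI27 and IFI6 encode small membrane proteins of a single family, to which IFI27L1 and IFI27L2 also belong. Many tumour cell lines carry some of these transcripts without added interferon.

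Promoter sequences are shown for IFI27, whose transcript fell, for its 2 neighbours and its relative IFI6, and for LGALS3BP, the next most abundant gene of the list per kb of exon. They are the bases just before the gene start, from RefSeq on GRCh38.p14, written 5′ to 3′ on the strand of the gene. Capitals mark each match to the core of the interferon-stimulated response element, which is GAAA, any 2 bases and GAAA again, on either strand. The stretch of IFI27L1 is shorter because an exon of another gene lies beyond it.
IFI27 (chr14:94110486-94110735, plus strand): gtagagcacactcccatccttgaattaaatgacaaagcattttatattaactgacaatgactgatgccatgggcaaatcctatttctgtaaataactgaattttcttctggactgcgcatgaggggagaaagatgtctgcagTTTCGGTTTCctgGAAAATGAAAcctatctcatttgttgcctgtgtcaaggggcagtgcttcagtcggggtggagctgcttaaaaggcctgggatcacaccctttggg
IFI27L1 (chr14:94081203-94081309, plus strand): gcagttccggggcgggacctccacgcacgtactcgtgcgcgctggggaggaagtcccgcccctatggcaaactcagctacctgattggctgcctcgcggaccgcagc
IFI27L2 (chr14:94129605-94129854, minus strand): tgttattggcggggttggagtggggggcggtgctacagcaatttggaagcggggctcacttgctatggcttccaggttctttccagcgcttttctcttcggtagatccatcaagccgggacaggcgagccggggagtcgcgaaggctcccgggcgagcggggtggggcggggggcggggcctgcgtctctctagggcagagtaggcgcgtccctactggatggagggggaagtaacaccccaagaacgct
IFI6 (chr1:27672193-27672442, minus strand): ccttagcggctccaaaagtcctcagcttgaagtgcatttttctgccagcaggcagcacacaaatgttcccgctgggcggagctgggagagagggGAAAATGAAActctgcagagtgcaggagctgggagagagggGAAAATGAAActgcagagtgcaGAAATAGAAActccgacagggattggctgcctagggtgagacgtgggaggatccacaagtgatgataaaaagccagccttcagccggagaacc
LGALS3BP (chr17:78979924-78980173, minus strand): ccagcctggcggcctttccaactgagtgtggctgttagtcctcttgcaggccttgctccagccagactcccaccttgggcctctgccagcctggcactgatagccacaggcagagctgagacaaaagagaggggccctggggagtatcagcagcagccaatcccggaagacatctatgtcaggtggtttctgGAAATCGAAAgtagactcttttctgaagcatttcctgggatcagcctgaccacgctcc

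IFI27 held 2 matches in this stretch, IFI6 held 3 and LGALS3BP held 1. The stretches of IFI27L1 and IFI27L2 held 0. The matches of IFI27 lay on opposite strands, at bases -108 to -99 and -95 to -86 counted from the gene start. Of the 51 genes, 40 had a RefSeq window from 250 bases before to 50 after a gene start, and 22 of the 40 (55%) held the core in at least 1 window. Over all 27305 genes with a window the share was 4.38%. A match says only that these letters are there.

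The libraries held 17259403 to 20920857 counts. Replicates differed by more than sampling noise, with a chi-square per gene of 2.96 between the Vehicle libraries and 1.61 between the Hx1R8 libraries, and pairs across the groups gave 1.48 to 2.43. The cells had high levels of SOX2 (498 to 541 CPM) and of the epithelial genes EPCAM, KRT8 and KRT18 (337 to 620 CPM), CPM being counts per 1000000 counts of the library, scaled by the TMM method. The epithelial marker CDH1 was lower, at 12.5 to 14.3 CPM. The squamous markers TP63 and KRT5 were at 0.4 to 1.91 CPM, and KRT14 and DSG3 had 0 reads in all libraries. KRT17 and PKP1, from the same marker list, had 0 to 5 reads per library. KRT6A, another squamous keratin, had 19.9 and 19.7 CPM in Vehicle and 17.8 and 17.1 CPM in Hx1R8, and was the 1 gene of these 12 epithelial markers with an unadjusted p under 0.05, without being called. Of 12 markers of immune cells 9 stayed under 1 CPM in Vehicle and in Hx1R8, and the defining PTPRC, CD3E, CD3D and MS4A1 were at 0. The summed level of the 12 was 6.29 and 6.13 CPM in Vehicle and 4.53 and 5.58 CPM in Hx1R8. Of 10 fibroblast and endothelial markers 8 stayed under 1 CPM in Vehicle and in Hx1R8, and the 10 had sums of 10 to 11.5 CPM. The exceptions were COL1A1, at 7.32 to 8.23 CPM and most of the sum, and KDR, at 1.16 to 2.14 CPM.

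IFI27 fell after Hx1R8, and it was the 1 gene of the 42 past the threshold. IFI27 had 250 and 259 CPM in Vehicle replicates 1 and 2 and 205 and 178 CPM in Hx1R8 replicates 1 and 2. Both Hx1R8 libraries lay below both Vehicle libraries, and the gap between the groups (44.1 CPM from the lowest Vehicle to the highest Hx1R8 library) was wider than the 27.4 CPM between the Hx1R8 libraries and the 9.58 CPM between the Vehicle libraries. The Vehicle mean was 254 ± 6.77 CPM and the Hx1R8 mean 192 ± 19.4 CPM (SD, n = 2 each), from 4366, 4481, 3536 and 3729 reads in the same order.

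The level in Hx1R8 was 0.753 of that in Vehicle, with a 95% interval of 0.699 to 0.81 (log2 fold change -0.41, SE 0.05, adjusted p = 1.3e-05 by edgeR's quasi-likelihood test with Benjamini-Hochberg adjustment over all tested genes). Of all tested genes 0.00691% were called lower and 0.0138% higher, which is 1 and 2 genes. Of the 42 interferon genes 1 was lower and 0 were higher. DESeq2 and limma-voom gave the same counts for the 42 genes, and 1 of the 42 had an unadjusted p under 0.05, against 3.39% of all tested genes. Without Hx1R8 replicate 2 IFI27 was at -0.31 on the log2 scale and no longer called. The spread in that fit came from the Vehicle libraries alone. Whether the smaller change or the lone Hx1R8 library cost the call was not tested. Fewer cells with the transcript and less of it per cell cannot be told apart in bulk RNA.

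**Figure D1:**
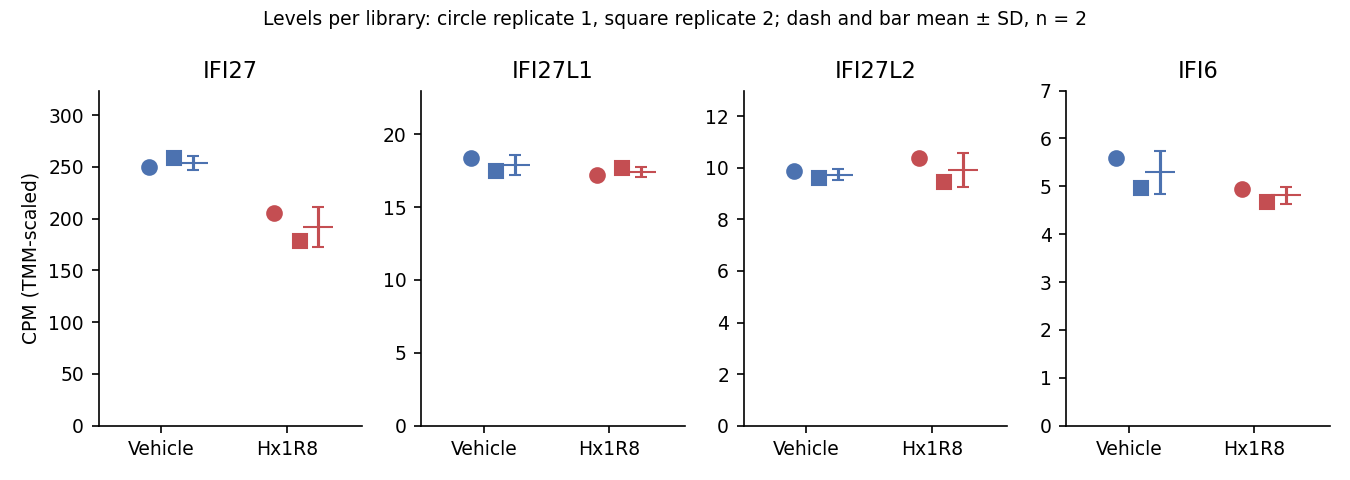
CPM of IFI27, IFI27L1, IFI27L2 and IFI6 in each library (vertical axis, each panel from 0), with Vehicle in blue and Hx1R8 in red, and the mean ± SD of 2 libraries beside the points. The Hx1R8 points of IFI27, at 205 and 178 CPM, lie below both Vehicle points, while those of IFI27L1 and IFI27L2 overlap with Vehicle.

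IFI27 stood apart from genes of a similar level. At a mean of 100 to 500 CPM there were 2234 tested genes, and 1 of them, IFI27 itself, had a log2 fold change of its size or larger in either direction. By unadjusted p IFI27 ranked 2 among the 14482 tested genes. These ranks describe the comparison that IFI27 was known for and are no further test of it.

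**Figure D2:**
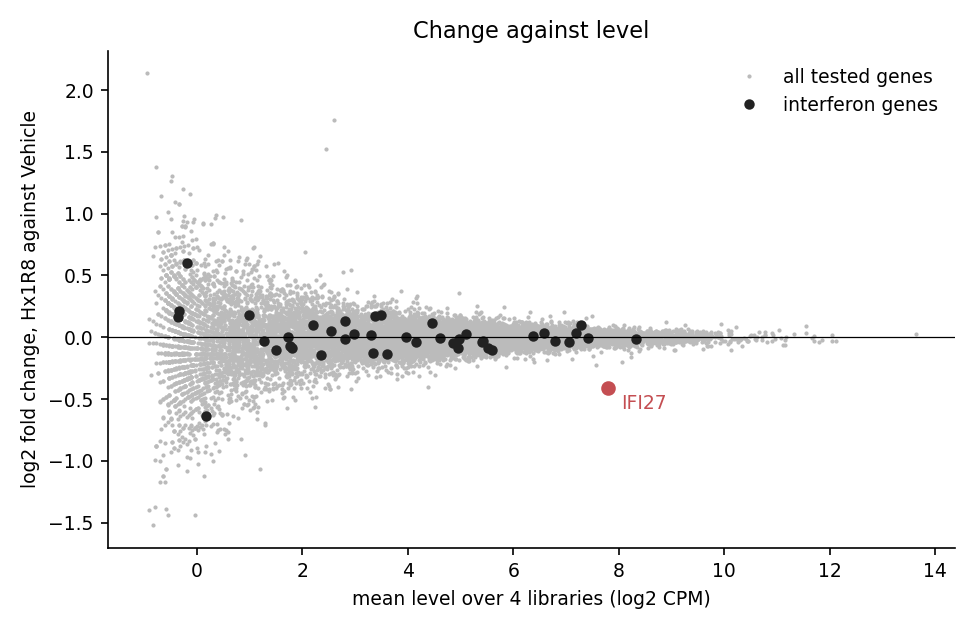
The log2 fold change of Hx1R8 against Vehicle (vertical axis) plotted on the mean level over 4 libraries in log2 CPM (horizontal axis), with tested genes in grey, the interferon genes in black and IFI27 in red. IFI27, at -0.41, lies below the band of genes of its level, and the other interferon genes lie within the grey band.

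The neighbours and relatives of IFI27 did not pass the test. IFI27 lies on chromosome 14 (94110736 to 94116690, plus strand, hg38 as listed in the table), with IFI27L1 before it (94081310 to 94102709) and IFI27L2 after it on the other strand (94127781 to 94129604). IFI27L1 had 18.4 and 17.5 CPM in Vehicle and 17.2 and 17.7 CPM in Hx1R8. IFI27L2 had 9.89 and 9.6 CPM in Vehicle and 10.4 and 9.45 CPM in Hx1R8. For both neighbours the groups overlapped. The log2 fold change was -0.04 (SE 0.09, 95% interval -0.22 to 0.14) for IFI27L1 and 0.02 (SE 0.12, -0.22 to 0.26) for IFI27L2, and neither interval reached that of IFI27, which ran from -0.52 to -0.30.

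IFI6, the interferon-induced relative on chromosome 1 (27666064 to 27672192), was scarce. It had 5.6 and 4.97 CPM in Vehicle and 4.94 and 4.68 CPM in Hx1R8. IFI6 was lower in both Hx1R8 libraries, as were 15.2% of all tested genes, by a margin smaller than the gap between its Vehicle libraries. Its log2 fold change was -0.14 (SE 0.16), and its interval of -0.46 to 0.18 held both 0 and the value of IFI27.

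Set against its neighbours within each library, IFI27 was lower in both Hx1R8 libraries. The CPM of IFI27 was 25.2 and 27 times that of IFI27L2 in Vehicle and 19.8 and 18.8 times in Hx1R8. Against IFI27L1 it was 13.6 and 14.8 times in Vehicle and 11.9 and 10.1 times in Hx1R8. The groups did not overlap for either neighbour. Against LGALS3BP, a gene of similar level, it was 0.809 and 0.772 times in Vehicle and 0.646 and 0.557 times in Hx1R8. On the scale of log2(CPM + 0.5) the ratio to IFI27L2 differed by -0.43, that to IFI27L1 by -0.37, that to LGALS3BP by -0.40 and that to IFI6 by -0.29. The two-sided exact permutation test gave p = 0.333 for each of these 4 ratios, also adjusted over the 4. That is the smallest p that 2 against 2 libraries allow. The log2 fold changes of IFI27L1, IFI27L2 and LGALS3BP were -0.04, 0.02 and -0.01. The ratios to these genes therefore restate the fall of IFI27 and are no further support for it.

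Within 0.2 Mb of IFI27 on either side the table listed 13 genes, of which 6 were tested. DDX24, an RNA helicase gene beside IFI27L1, was near IFI27 in Vehicle CPM, with 240 and 248 CPM in Vehicle and 241 and 248 CPM in Hx1R8 (log2 fold change 0.00, SE 0.05). OTUB2, a deubiquitinase gene, was at -0.02 (SE 0.29). PPP4R4, a phosphatase subunit gene with 0.857 and 0.752 CPM in Vehicle and 1.34 and 1.0 CPM in Hx1R8, was at 0.52 (SE 0.35). IFI27 was the 1 called gene of the 6.

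**Figure D3:**
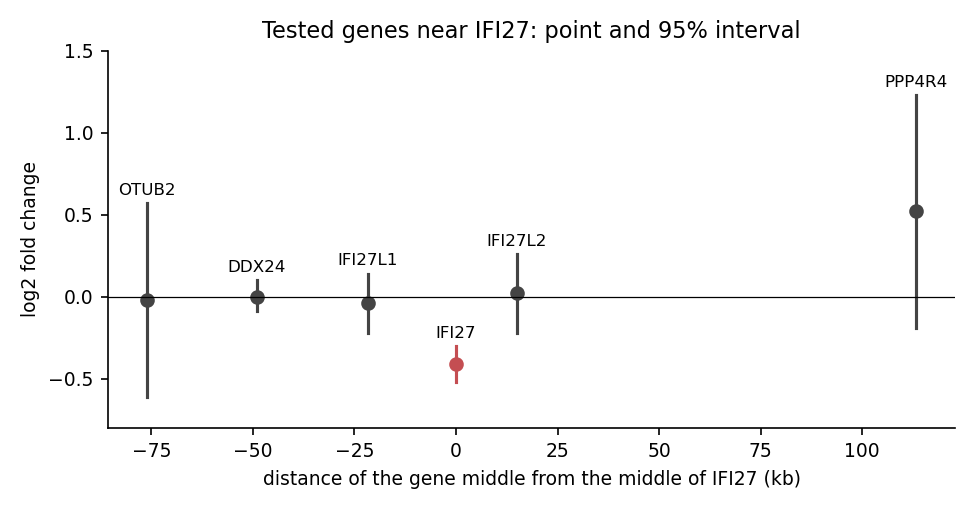
The log2 fold change of Hx1R8 against Vehicle (vertical axis, point with 95% interval) for the 6 tested genes near IFI27, plotted on the distance between gene middles in kb (horizontal axis). The interval of IFI27 in red, from -0.52 to -0.30, lies below 0, and the other 5 cross it.

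All 13 genes of this stretch, IFI27 included, are listed a second time on an alternate contig of chromosome 14. The listed exon length of IFI27, 1632 bases, therefore counts the same exons on both, and its merged exons on chromosome 14 span 816 bases. Besides IFI27, IFI27L1 and IFI27L2, the list held 2 other such genes, IRF7 and IRF9. The labels do not say whether reads could align to alternate contigs, and its part in the levels of these 5 genes was not tested.

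The receptor and its kinases were present at moderate levels, and no member passed the test. IFNAR1 had 135 CPM in both Vehicle libraries and 132 and 131 CPM in Hx1R8. IFNAR2, the other receptor chain, had 31.5 and 27.2 CPM in Vehicle and 29.6 and 27.5 CPM in Hx1R8. The receptor chains thus differed little between groups, and for IFNAR2 the groups overlapped. JAK1 had 43.3 and 42.5 CPM in Vehicle and 41.5 and 42.1 CPM in Hx1R8. TYK2 had 113 CPM in both Vehicle libraries and 111 and 110 CPM in Hx1R8. All 4 log2 fold changes lay between -0.04 and -0.03, and the intervals stayed within 0.868 to 1.08 of the Vehicle level. IFNAR1, JAK1 and TYK2 had both Hx1R8 libraries below both Vehicle libraries, an order found in 15.2% of all tested genes. The interferon genes themselves were near 0. Of 21 ligand genes 18 or 19 had 0 reads in each library, and no ligand gene had more than 2 reads, below the floor of 3 counts (0.143 to 0.174 CPM, covering counting error only).

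Among the transcription factors IRF9 was the only gene higher in both Hx1R8 libraries, as were 14.7% of all tested genes. It did not pass the test. IRF9, the DNA-binding partner of STAT2, had 10.5 and 10.3 CPM in Vehicle and 12.2 and 11.4 CPM in Hx1R8 (log2 fold change 0.18, SE 0.11, interval -0.05 to 0.40). STAT2 had 43.5 and 43.4 CPM in Vehicle and 43.6 and 41.5 CPM in Hx1R8, and the groups overlapped. IRF1, an early responder to interferon, had 31.5 and 36.2 CPM in Vehicle and 33.1 and 35.6 CPM in Hx1R8. Its Hx1R8 libraries lay between the Vehicle libraries. IRF2, which can counter IRF1, had 47.8 and 46.4 CPM in Vehicle and 45.1 and 43.6 CPM in Hx1R8 (log2 fold change -0.09, SE 0.06). IRF3, which responds to viral nucleic acid, had 29.9 and 33.1 CPM in Vehicle and 30.1 and 32.2 CPM in Hx1R8, and 80.5% of its exon bases are its own while BCL2L12 overlaps the others. IRF7, which amplifies interferon production, was scarce at 3.2 and 3.58 CPM in Vehicle and 3.37 and 3.1 CPM in Hx1R8. For IRF3 and IRF7 the groups overlapped as well.

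Of the RNA sensors and RNA-binding effectors 11 of 12 were tested and 0 passed. OASL, under the filter, had 4 to 9 reads per library. EIF2AK2, the kinase PKR that halts translation on sensing double-stranded RNA, had 175 and 169 CPM in Vehicle and 172 and 171 CPM in Hx1R8. OAS3, which makes the activator of RNase L, had 80.8 and 85.3 CPM in Vehicle and 80.9 and 85.9 CPM in Hx1R8. The intervals of these abundant genes were narrow, at 0.93 to 1.06 and 0.93 to 1.09 of the Vehicle level. IFIH1, the sensor MDA5, had 21.3 and 21 CPM in Vehicle and 23.5 and 22.5 CPM in Hx1R8 (log2 fold change 0.12, SE 0.08). IFIT5 had 10.1 and 9.19 CPM in Vehicle and 11.4 and 10.5 CPM in Hx1R8 (0.17, SE 0.12). Both were higher in both Hx1R8 libraries without passing the test, as were IFIT1 and OAS1, while IFIT2 and DDX60 were lower in both. Of all tested genes 14.7% were higher in both and 15.2% lower. IFIT2, an RNA-binding protein gene, had 19 and 25 reads in Vehicle and 14 and 17 in Hx1R8. Its value of -0.63 (SE 0.34) was the lowest of the list, and its interval ran from -1.32 to 0.06. IFIT1, IFIT3, OAS1, OAS2, DDX60 and ISG20 lay between -0.09 and 0.18.

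Of the genes that restrict viruses at membranes or capsids only BST2 and MX1 were tested. MX1, a dynamin-like antiviral GTPase, had 24.9 and 24 CPM in Vehicle and 24.9 and 23.9 CPM in Hx1R8, and its groups overlapped. BST2, which tethers virus particles to the cell, had 10 to 17 reads per library. IFITM1, IFITM2 and IFITM3, which hinder virus entry, had 1 to 13 reads per library. MX2 and TRIM22 had 6 to 11 reads per library. These 5 genes were under the filter, so no change in them was tested.

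The ISG15 conjugation system had its parts at unequal levels. ISG15, the ubiquitin-like modifier, had 3.94 and 4.74 CPM in Vehicle and 5.46 and 3.96 CPM in Hx1R8, with overlapping groups. UBE2L6, its conjugating enzyme, had 50.1 and 50.6 CPM in Vehicle and 47.8 and 46.1 CPM in Hx1R8. UBE2L6 was lower in both Hx1R8 libraries, as were 15.2% of all tested genes, without passing the test (log2 fold change -0.10, SE 0.06). USP18, the enzyme that removes ISG15, had 12.1 and 13.2 CPM in Vehicle and 11.8 and 11.2 CPM in Hx1R8 (-0.14, SE 0.11). TRIM25, a ubiquitin ligase that acts in RNA sensing, had 142 and 148 CPM in Vehicle and 153 and 144 CPM in Hx1R8. Its groups overlapped, as did those of the ligase genes HERC5 and HERC6, at 0.05 (SE 0.15) and -0.01 (SE 0.14). RNF213, a very large ubiquitin ligase, had 139 and 160 CPM in Vehicle and 160 and 161 CPM in Hx1R8. Vehicle replicate 1 was the low library for RNF213. Without Vehicle replicate 2 its log2 fold change was 0.21 and it was called higher (edgeR adjusted p = 0.0044), whereas over all libraries it was 0.10 (SE 0.05) and not called.

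Of the other induced genes 8 of 11 were tested and 0 passed. LGALS3BP, a secreted glycoprotein, had 308 and 336 CPM in Vehicle and 318 and 319 CPM in Hx1R8. PARP14, an ADP-ribosyltransferase, had 96.1 and 93 CPM in Vehicle and 96.9 and 96.6 CPM in Hx1R8. PARP9, which pairs with a ubiquitin ligase, had 34.8 and 28.4 CPM in Vehicle and 29 and 30.5 CPM in Hx1R8. Of these 3 only PARP14 had groups that did not overlap, at 0.03 (SE 0.05), with Hx1R8 above as in 14.7% of all tested genes. IFI35 was at 0.01 (SE 0.10) and CMPK2, a mitochondrial nucleotide kinase, at -0.13 (SE 0.12). IFI44 had 9 and 12 reads in Vehicle and 16 and 19 in Hx1R8, and its value of 0.60 (SE 0.40) was the highest of the list. SAMD9 was at -0.11 (SE 0.21), and IFI16, a DNA sensor, at 0.16 (SE 0.42) with 10 to 15 reads per library. XAF1, SAMD9L and IFI44L had 0 to 7 reads per library.

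**Figure D4:**
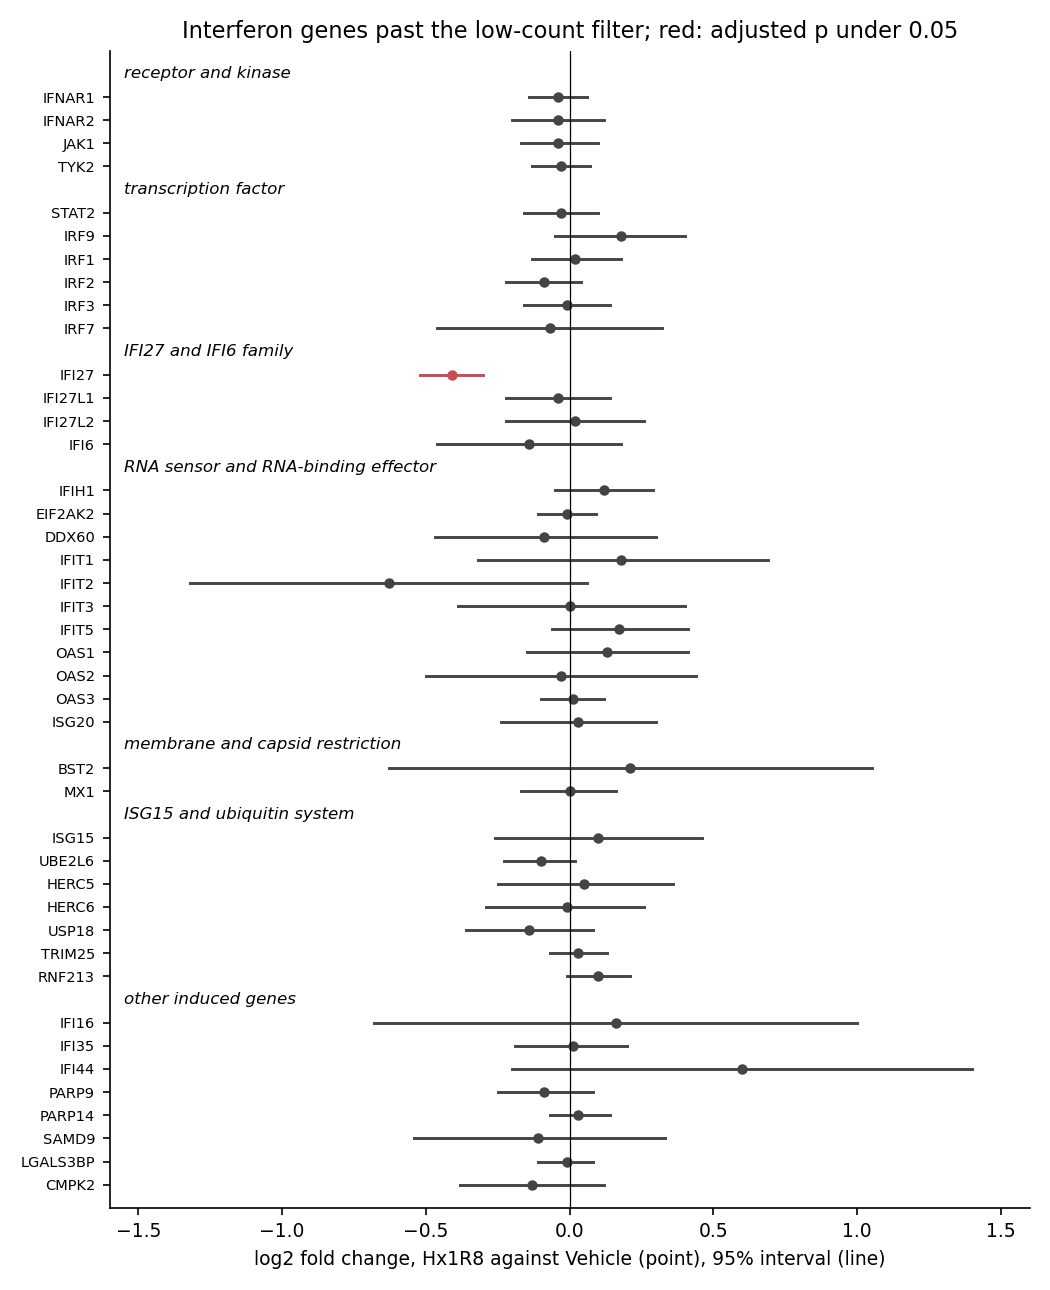
The log2 fold change of Hx1R8 against Vehicle with its 95% interval (horizontal axis) for the 42 tested interferon genes, grouped by role (vertical axis). IFI27 in red, at -0.41, is the only interval that leaves 0 out, and the scarce genes BST2, IFI16, IFI44 and IFIT2 have the widest intervals.

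Over the list the changes centred on 0. Of the 42 genes 19 were above 0 and 23 below, with a median log2 fold change of -0.01, against a median of -0.00 over all tested genes. In 10 of them both Hx1R8 libraries lay below both Vehicle libraries, where 15.2% of all tested genes did so, and in 8 both lay above, where 14.7% did. Beside IFI27, 36 of the 41 other genes had a 95% interval that stayed within 1.5-fold of Vehicle. Over all 14482 tested genes 11792 did so. Among the 24 of the 41 other genes at 10 CPM or more, 19 were within 1.2-fold. For that bound the share over all tested genes was not computed. Of the 24, 22 had intervals that did not overlap the interval of IFI27, the exceptions being USP18 and CMPK2. The summed CPM of the 50 genes other than IFI27 was 1693 and 1738 in Vehicle and 1720 and 1709 in Hx1R8, so those groups overlapped. IFI27 made up 12.8% and 13% of the summed CPM of the 51 genes in Vehicle and 10.7% and 9.43% in Hx1R8.

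Scaled by exon length, IFI27 was the most abundant of the 51 genes in both groups. Its length-scaled level was 312 ± 8.3 CPM per kb of exon in Vehicle and 235 ± 23.8 CPM per kb in Hx1R8 (SD, n = 2 each), and it ranked 124 of the 14482 tested genes in Vehicle. LGALS3BP followed at 146 ± 8.7 CPM per kb in Vehicle and 145 ± 0.377 CPM per kb in Hx1R8 (SD, n = 2 each). UBE2L6, TYK2, IFI27L1 and TRIM25 came next at 25.2 to 29.5 CPM per kb in Vehicle, with the libraries of IFI27L1 overlapping those of TYK2 and of TRIM25, while TYK2 lay above TRIM25 in both. Commonly induced genes were far lower, with ISG15 at 6.83 ± 0.887, IFI6 at 6.32 ± 0.531 and IFIT1 at 0.371 ± 0.0227 CPM per kb in Vehicle (SD, n = 2 each). In Vehicle IFI27 was 12 times as abundant per kb as IFI27L1 and 14.4 times as abundant as IFI27L2.

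**Figure D5:**
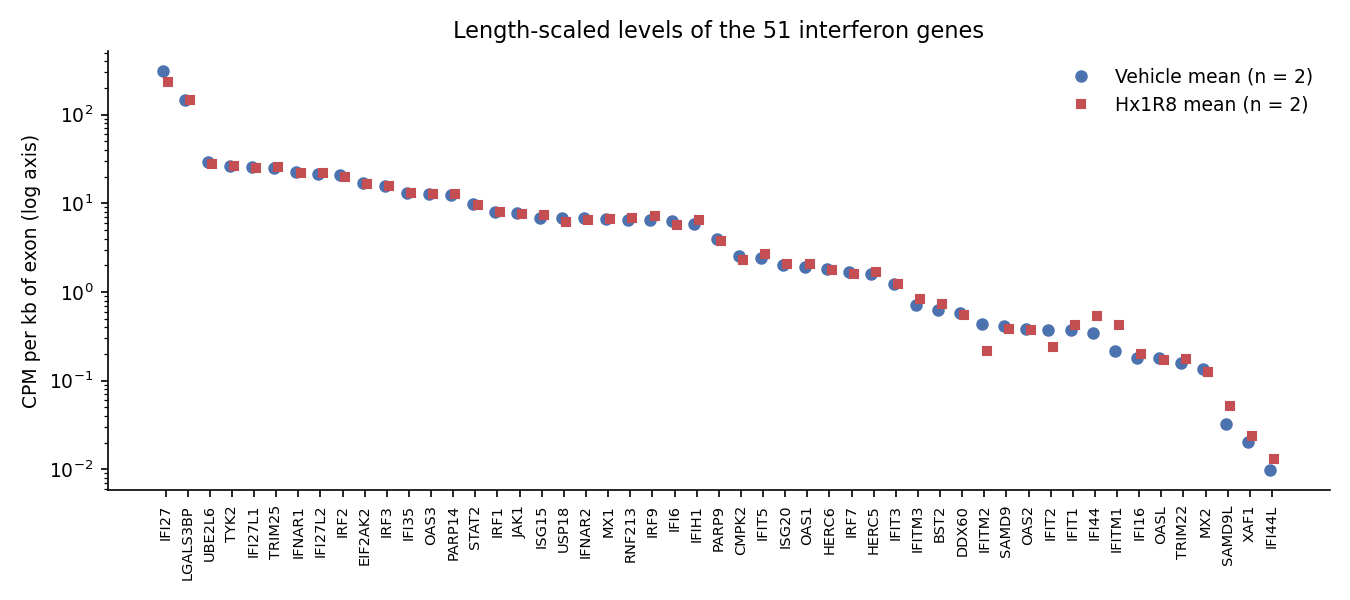
Mean level in CPM per kb of merged exon (vertical log axis) of all 51 interferon genes, ordered by their Vehicle level (horizontal axis), with Vehicle in blue and Hx1R8 in red. IFI27, at 312 and 235 CPM per kb, and LGALS3BP, at 146 and 145 CPM per kb, lie above the rest, and IFI27 is the abundant gene whose points are visibly apart.

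A list of 105 other genes of the pathway held no called gene. Of these 66 were tested, 0 passed by edgeR, DESeq2 or limma-voom, and 2 had an unadjusted p under 0.05, a share below the 3.39% of all tested genes. Their values ran from -0.34 to 0.53, with a median of -0.01. Among 16 tested receptors, kinases and regulators, STAT3, a transcription factor of cytokine signalling, was at -0.03 (SE 0.05) and IRF2BP2, a partner of IRF2, at -0.00 (SE 0.05). Among 10 tested nucleic acid sensing genes, MAVS, the adaptor of the RNA sensors, was at -0.01 (SE 0.05) and TLR3 at 0.18 (SE 0.20). CGAS and STING1, a DNA sensor and its adaptor, had levels below 0.5 CPM in every library. Among 40 tested induced genes, ADAR, an RNA-editing enzyme gene, was at -0.01 (SE 0.05) and WARS1, a tryptophan tRNA synthetase gene, at -0.00 (SE 0.05).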

How the data were processed

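RNA was sequenced from 2 Vehicle and 2 Hx1R8 libraries of NCI-H520 cells. The deposited values are whole read counts for each gene. The submitters' processing notes name STAR 2.7.9 and hg38, and no label names the counter, its annotation or whether it used strand, so reads of overlapping antisense genes could not be told apart. The other deposited column that was used lists exon bases per gene and, tested on the table, includes alternate contigs, so lengths were recomputed from merged exons on 1 chromosome. A broken row on 2 lines, without reads, was left out.

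The fit used edgeR 4.0.16 (R 4.3.3) with TMM factors of 0.998 to 1, the filterByExpr filter and a two-sided quasi-likelihood test of group alone. P-values were adjusted by Benjamini-Hochberg over 14482 genes at a threshold of 0.05. Standard errors and 95% intervals came from the same fit. CPM per kb divides CPM by merged exon bases. The method was tested on simulated data with changes larger than that of IFI27, so that test does not cover calls of its size. The members and lists were chosen with earlier results of these data known. Every member was described, and from the 105 other pathway genes, all matched to the table and 2 of them through RefSeq synonyms, a part of the most abundant and the lowest p was named, CGAS and STING1 being chosen after their values were seen. Alternatives were other scalings and filters, DESeq2 1.42.0, limma-voom (limma 3.58.1), robust dispersions, a replicate block and leaving out each library.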

Additional observations from a re-analysis of the deposited data

How the results depend on the processing

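IFI27 was called lower, at a log2 fold change of -0.41, under all 9 settings that kept the 4 libraries, and no other interferon gene was called there. Over all tested genes, 1 was higher by DESeq2, and 1 with robust dispersions, in place of 2, with the cause not tested. With 1 library left out, where the lone sample is assumed to vary like the other group, 2 to 41 genes were higher and 1 to 38 lower, 0 to 1 interferon genes were higher and 0 to 1 lower. In those settings IFI27 ran from -0.51 to -0.31, its call being lost without Hx1R8 replicate 2, and RNF213 from 0.00063 to 0.21, called without Vehicle replicate 2. With the replicate number as a block IFI27 stayed at -0.41 (edgeR adjusted p = 0.0014), and the counts of called genes were 2 higher and 1 lower as before. Pairing was not supported beyond the number itself, since the deviations of samples with 1 number had a correlation of 0.031 over 14482 genes. The difference in the log2 ratio of IFI27 to IFI27L2 was -0.43 with a pseudocount of 1 CPM and with library totals.

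Of 543 recomputed values of the 42 genes, 33 had the other sign, all of them with 1 library left out and none of them called. With the cause not tested, the values over the 4 libraries left out in turn were as follows for these genes: IFNAR2 (-0.14 to 0.066), STAT2 (-0.064 to 0.0053), IRF1 (-0.073 to 0.13), IRF3 (-0.083 to 0.063), IRF7 (-0.15 to 0.012), IFI27L2 (-0.043 to 0.094), EIF2AK2 (-0.03 to 0.016), IFIT3 (-0.061 to 0.078), OAS2 (-0.2 to 0.11), OAS3 (-0.038 to 0.051), ISG20 (-0.088 to 0.16), MX1 (-0.031 to 0.027), ISG15 (-0.13 to 0.33), HERC5 (-0.015 to 0.12), HERC6 (-0.052 to 0.033), TRIM25 (-0.0063 to 0.075), IFI35 (-0.079 to 0.096), PARP9 (-0.22 to 0.068), SAMD9 (-0.37 to 0.081), LGALS3BP (-0.074 to 0.049) and CMPK2 (-0.3 to 0.064). Depth limits the scarce genes: 5 of the 42 had intervals beyond 1.5-fold, and 9 of the 51 were not tested.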

Other observations

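Of the other pathway genes, the 2 with an unadjusted p under 0.05 were both lower in Hx1R8 and not called by edgeR, and their share of the 66 tested was below the 3.39% of all tested genes. TMEM140, an interferon-inducible membrane protein gene, had 28.2 and 31.7 CPM in Vehicle and 24.1 and 27.2 CPM in Hx1R8 (log2 fold change -0.22, SE 0.08). SP110, a nuclear body protein gene, had 7.26 and 6.42 CPM in Vehicle and 5.75 and 5.11 CPM in Hx1R8 (-0.34, SE 0.15). For both genes the Hx1R8 libraries lay below the Vehicle libraries, as they did for 15.2% of all tested genes. Both were named for their p, so this order is no further support. Of the exon bases of TMEM140 78.2% are its own, while CYREN overlaps the others.

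The palindromic core TTCNNNGAA of the gamma-activated site, the element bound by STAT dimers, was found in the promoter windows of 10 of 40 interferon genes (25%) and of 9.38% of all 27305 genes with a window. IFI27 held 1 match, at bases -101 to -93 from its start, overlapping both of its matches to the core of the interferon-stimulated response element. IFI27L1, IFI27L2 and IFI6 held none.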
